A study of Drosophila melanogaster with 6 samples.

Results

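The vitelline membrane protein genes Vm26Aa, Vm26Ab, Vm26Ac, Vm32E, Vm34Ca and Vml were taken by exact symbol from a table of 15010 genes, and all 6 were found. The table gives transcript abundance as TPM, a length-scaled share of the transcripts in a library, for 6 libraries of polyadenylated RNA from adult fruit flies (Drosophila melanogaster), each labelled intestine. The 3 control libraries came from the offspring of MTD-GAL4/+ mothers, and the 3 InR-DN libraries, titled reprogrammed, from the offspring of MTD-GAL4/InR-DN mothers. The other parent was Oregon R, a laboratory wild-type strain, in both groups. The genotype labels do not name which parent was the mother, and the MTD-GAL4 parent is taken as the mother here.

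MTD-GAL4 drives transgenes in the maternal germ line, and InR-DN encodes a dominant-negative form of the insulin receptor. All mothers carried the driver, so it is shared by the groups. Offspring may inherit the InR-DN transgene, and an effect of the maternal germ line and one of inheritance cannot be told apart. The labels used here name neither the sex nor the age of the flies. Nor do they state that replicates were separate flies or crosses. The p-values set the group difference against the spread of these samples only, and that spread may be technical.

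The vitelline membrane is the innermost layer of the fly eggshell. Somatic follicle cells surrounding the oocyte secrete its proteins in mid-oogenesis, while yolk is taken up, and the chorion is laid down on top of it afterwards. The proteins of this family share a short hydrophobic domain and become cross-linked into an insoluble sheet. The family is known as a product of the ovary. The sheet also carries positional cues for the embryo.

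The libraries held transcripts of intestine and ovary alike. The trypsin gene alphaTry, an intestine marker, lay at 4767 to 7517 TPM, and the oocyte mRNA osk at 751 to 866 TPM. The photoreceptor rhodopsin gene ninaE lay at 2249 to 3015 TPM. The male accessory gland and testis markers Acp26Aa, Acp36DE and Mst87F were below 1 TPM in every library. Recovered reads totalled 33954856 to 45189247 per library. No pair of libraries of 1 group agreed within sampling noise (chi-square of 22.4 to 99.1 per degree of freedom). Vitelline membrane transcripts are therefore described as part of RNA labelled intestine, and what share of the RNA came from ovary was not tested.

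Each of the 6 genes is annotated in the BDGP6.54 reference as a single-exon gene. Vm26Ab (FBgn0003980) lies on arm 2L from 5957004 to 5957639 on the plus strand and encodes 168 residues. Vm26Ac (FBgn0086266) follows 365 bases on, from 5958005 to 5958631 on the minus strand, and encodes 181 residues. Vm26Aa (FBgn0003979) comes after a further 964 bases, from 5959596 to 5960340 on the minus strand, and encodes 141 residues. These 3 genes form a cluster that no other annotated gene interrupts.

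The other members lie apart. Vm32E (FBgn0014076; 2L, 11171167 to 11171665, minus strand, 116 residues) sits inside an intron of the calcium channel subunit gene Ca-beta, which is on the same strand. The nearest Ca-beta exon is 290 bases away. Vm34Ca (FBgn0003983; 2L, 13411141 to 13411631, minus strand) encodes 119 residues. Vml (FBgn0085362; X, 2275822 to 2277781, plus strand) encodes 578 residues and is the longest of the family. No exon of another annotated gene overlaps a member, so its reads were not shared with an overlapping gene in this annotation.

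All 6 genes had reads in every library, and each varied widely between libraries of the same group. Vm26Aa, one of the major structural proteins of the layer, lay at 83.0, 295 and 14.4 TPM in control replicates 1 to 3. In InR-DN replicates 1 to 3 it lay at 69.1, 317 and 215 TPM. Control replicate 2 and InR-DN replicates 2 and 3 were high and the other libraries low, so the groups overlapped. In bulk RNA, fewer follicle cells and less transcript per cell cannot be told apart.

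Vm26Ab, a second major structural protein whose mutants are female sterile, lay at 54.3, 139 and 19.5 TPM in control replicates 1 to 3. Its InR-DN values were 42.4, 160 and 93.9 TPM. Vm34Ca, a structural member encoded elsewhere on 2L, lay at 52.1, 191 and 7.20 TPM in controls. In the InR-DN libraries Vm34Ca lay at 45.4, 234 and 190 TPM. For Vm26Aa, Vm26Ab and Vm34Ca the libraries ranked identically, from InR-DN replicate 2 through control replicate 2, InR-DN replicate 3, control replicate 1 and InR-DN replicate 1 to control replicate 3.

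Vm32E is made by follicle cells at a later stage than the cluster genes. It lay at 3.02, 47.8 and 0.346 TPM in control replicates 1 to 3, from 28, 556 and 4 reads. Its InR-DN values were 7.01, 99.5 and 74.1 TPM, from 62, 1112 and 653 reads. Here InR-DN replicate 3 exceeded control replicate 2, unlike for the structural genes above, and control replicate 3 was again lowest.

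Vml carries the family domain and is known as a substrate of the sulfotransferase Pipe, which marks the ventral side of the eggshell. It lay at 5.29, 70.4 and 0.589 TPM in controls and at 8.28, 105 and 38.9 TPM in the InR-DN libraries. InR-DN replicate 2 was highest and control replicate 3 lowest, as for 4 of the other members.

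Vm26Ac was the least abundant member and fell to a few reads in 3 libraries. It lay at 0.172, 26.7 and 0.138 TPM in controls, from 2, 390 and 2 reads. In the InR-DN libraries it lay at 0.450, 18.2 and 19.1 TPM, from 5, 255 and 211 reads. Both low control values were under a floor of 3 reads per library, which corresponds to 0.258 and 0.206 TPM there and covers counting error alone. Control replicate 2 was the highest library for this gene.

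**Figure D1:**
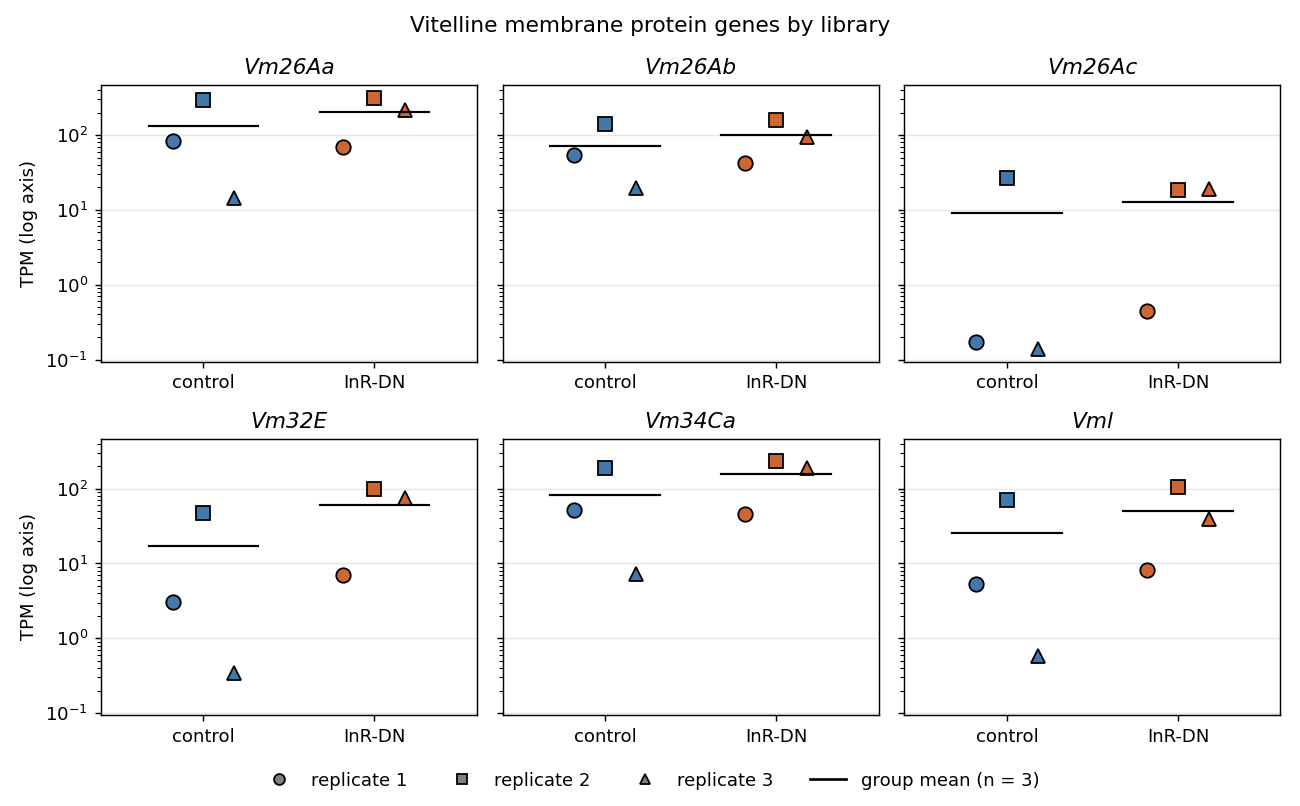
TPM of each vitelline membrane protein gene on a log axis, with 1 point per library (shape gives the replicate, colour the group) and a line at the group mean of 3 libraries. In every panel control replicate 2 and InR-DN replicates 2 and 3 lie above control replicates 1 and 3 and InR-DN replicate 1, so each group spans high and low values.

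Across all 6 members, control replicate 2 and InR-DN replicates 2 and 3 lay above the other libraries without exception. The size of the gap differed between members. Between the highest and the lowest library, Vm26Ab differed by 8.21-fold, Vm26Aa by 22.0-fold and Vm34Ca by 32.4-fold. Vml differed by 178-fold and Vm32E by 288-fold. Vm26Ac differed by 194-fold, with an exact 95% counting interval of 53.3 to 1606 because its lowest library held 2 reads. The corresponding interval was 7.26 to 9.32 for Vm26Ab and 112 to 1058 for Vm32E. These intervals leave out the spread between replicates, and reads are not independent molecules.

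The members therefore fell into a set of abundant genes with the smaller gaps (Vm26Aa, Vm26Ab, Vm34Ca) and a set of less abundant genes with the larger gaps (Vm32E, Vml, Vm26Ac). Vm26Aa and Vm34Ca kept the most even ratio, with 1.13 to 2.00 times as much Vm26Aa in TPM over the 6 libraries. The ratio of Vm26Aa to its cluster neighbour Vm26Ac was 11.1, 17.5 and 11.3 in control replicate 2 and InR-DN replicates 2 and 3. Where Vm26Ac was low it rested on few reads and had wide exact 95% counting intervals. It was 483 (interval 133 to 3994) in control replicate 1 and 105 (28.7 to 870.0) in control replicate 3, each from 2 Vm26Ac reads. It was 154 (65.6 to 474) in InR-DN replicate 1, from 5 reads, so these intervals lie above the ratios of the other 3 libraries.

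Summed over the 6 genes, the level was 198, 769 and 42.2 TPM in control replicates 1 to 3 and 173, 933 and 631 TPM in InR-DN replicates 1 to 3. Group means were 336 ± 383 and 579 ± 383 TPM (SD, n = 3 per group), so the difference of 242 TPM was smaller than either SD. With 1 library left out the difference ranged from 65.2 TPM without InR-DN replicate 2 to 459 TPM without control replicate 2. It was 95.2 TPM without control replicate 3 and 445 TPM without InR-DN replicate 1. The summed level differed by 22.1-fold between its extreme libraries.

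Composition differed between libraries too. Vm26Aa made up 34.0% to 41.9% of the summed level in all libraries. Vm26Ab made up 46.2% in control replicate 3, where the sum was lowest, and 17.1% in InR-DN replicate 2, where it was highest. Vm32E made up 0.820% and 10.7% in the same libraries, and Vml 1.40% and 11.2%. Control replicate 3 was the library in which Vm26Ab exceeded Vm26Aa.

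Because TPM is scaled by length, levels can be ordered between genes. By mean TPM the order was Vm26Aa, Vm34Ca, Vm26Ab, Vm32E, Vml and Vm26Ac. Vm26Aa exceeded Vm34Ca in 6 of 6 libraries. Vm34Ca exceeded Vm26Ab in 4 of 6 and Vm32E exceeded Vml in 1 of 6, so neither pair was ordered beyond its spread. Vm32E lay above Vml only in InR-DN replicate 3 (74.1 against 38.9 TPM), and its higher mean rests on that library. The median log2 ratio of Vm32E to Vml was -0.40. Vml exceeded Vm26Ac in 6 of 6.

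**Figure D2:**
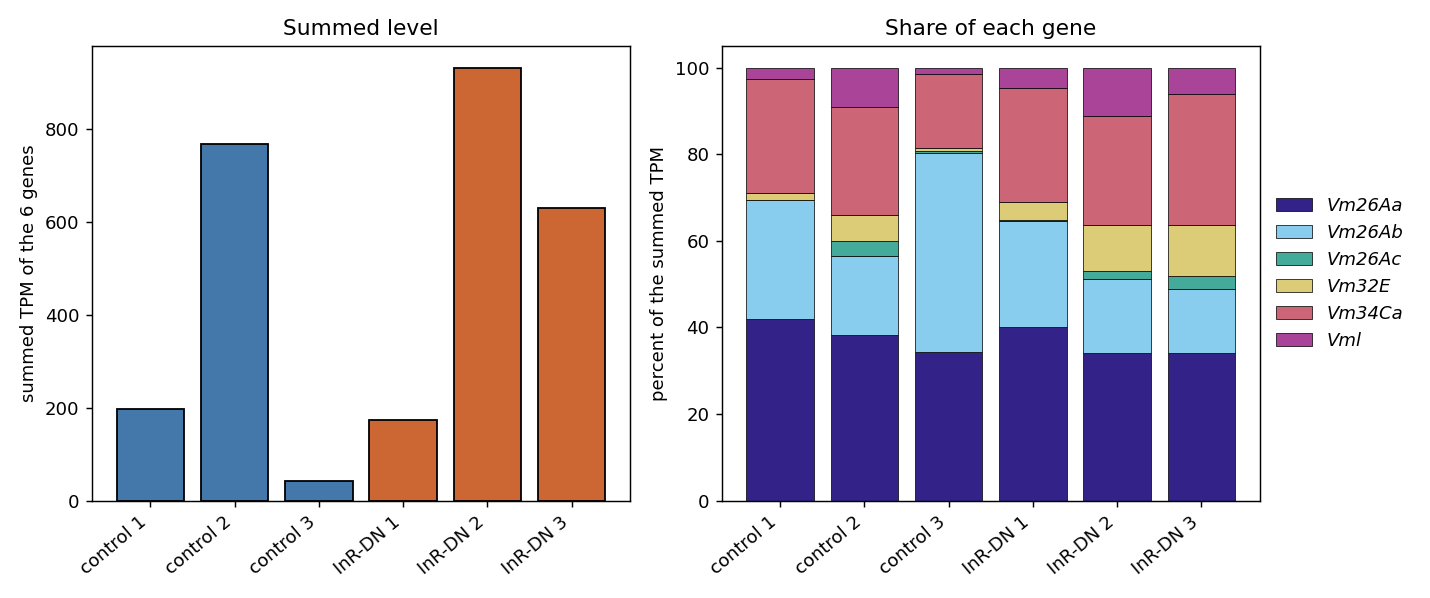
Left, summed TPM of the 6 genes in each library (bars, colour by group). Right, the percent of that sum contributed by each gene. The sum runs from 42.2 to 933 TPM, and Vm26Ab takes 46.2% of the smallest sum against 17.1% of the largest.

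The comparison of offspring of InR-DN mothers with offspring of controls asks whether these transcripts differed between the groups. It does not part the maternal genotype from inheritance of the transgene. All 6 members passed the filter of 1 TPM in at least 3 libraries, and none passed the test (limma with Benjamini-Hochberg adjustment over 10816 genes, adjusted p = 1.00 for each). Vm26Ac met the filter in 3 libraries exactly. All 6 mean log2 values were higher in the InR-DN group, with a median log2 fold change of 1.43 against 0.01 over all tested genes, of which 54.6% were higher. As the members rank the libraries nearly alike, their shared direction is not 6 separate observations.

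Over all genes 0% were called at the adjusted threshold of 0.05, 3.15% had an unadjusted p under 0.05 (341 genes), and 6.36% had groups that did not overlap. Among the members these counts were 0, 0 and 0. The count at an unadjusted p under 0.05 depended on single libraries. Without control replicate 2 it was 5 of 6, all except Vm26Ab, against 2.63% of all genes. The lowest unadjusted limma p there was 0.0117, for Vm32E, with an adjusted p of 1.00. Leaving out InR-DN replicate 1 gave 1 of 6, against 3.48% of all genes. That was Vm32E, with an unadjusted limma p of 0.0422 and an adjusted p of 1.00. Control replicate 2 is the high control library for every member, and InR-DN replicate 1 the low InR-DN library. The limma voom fit on recovered reads called 1 gene, which was no member, with 354 at an unadjusted p under 0.05. The groups therefore could not be separated for this family with 3 libraries each, and 0.1 is the smallest two-sided p that exact permutation allows with 3 against 3.

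Fold changes were wide in their error. Vm32E averaged 17.0 ± 26.6 TPM in controls and 60.2 ± 47.8 TPM in the InR-DN group, a log2 fold change of 2.61 (SE 1.48, 95% interval -0.91 to 6.14) on the log2(TPM + 1) scale. Vml averaged 25.4 ± 39.0 and 50.6 ± 49.2 TPM, with a log2 fold change of 1.93 (interval -1.57 to 5.42). Vm34Ca averaged 83.3 ± 95.6 and 156 ± 98.5 TPM (1.55, interval -1.23 to 4.32). In each case 1 control library lay among the high values and 1 InR-DN library among the low ones.

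Vm26Aa averaged 131 ± 146 TPM in controls and 200.3 ± 125 TPM in the InR-DN group (log2 fold change 1.22, interval -1.35 to 3.79). Vm26Ab averaged 70.9 ± 61.4 and 98.7 ± 58.9 TPM (0.69, interval -1.10 to 2.48). For Vm26Ac the averages were 8.99 ± 15.3 and 12.6 ± 10.5 TPM (1.31, interval -2.33 to 4.94). Changes of low genes are understated on this scale, and the value for Vm26Ac ran from 0.62 with a pseudocount of 5 TPM to 2.45 with limma voom.

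For every member the highest value came without control replicate 2 and the lowest without control replicate 3. Without control replicate 2 the log2 fold change was 4.08 for Vm32E, 3.42 for Vml, 2.83 for Vm26Ac, 2.61 for Vm34Ca, 2.23 for Vm26Aa and 1.37 for Vm26Ab. Without control replicate 3 the values were 1.49, 0.68, 0.53, 0.34, 0.099 and -0.013 in the same order. Without InR-DN replicate 1 they were 3.76, 2.86, 2.56, 2.28, 1.85 and 1.19. Without InR-DN replicate 2 they were 1.93, 1.11, 0.70, 1.11, 0.76 and 0.25. The value of Vm26Ac was also lower without control replicate 1 (0.55) or InR-DN replicate 3 (0.66). No adjusted p fell below 0.612 in any of the 84 alternative fits of the members.

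**Figure D3:**
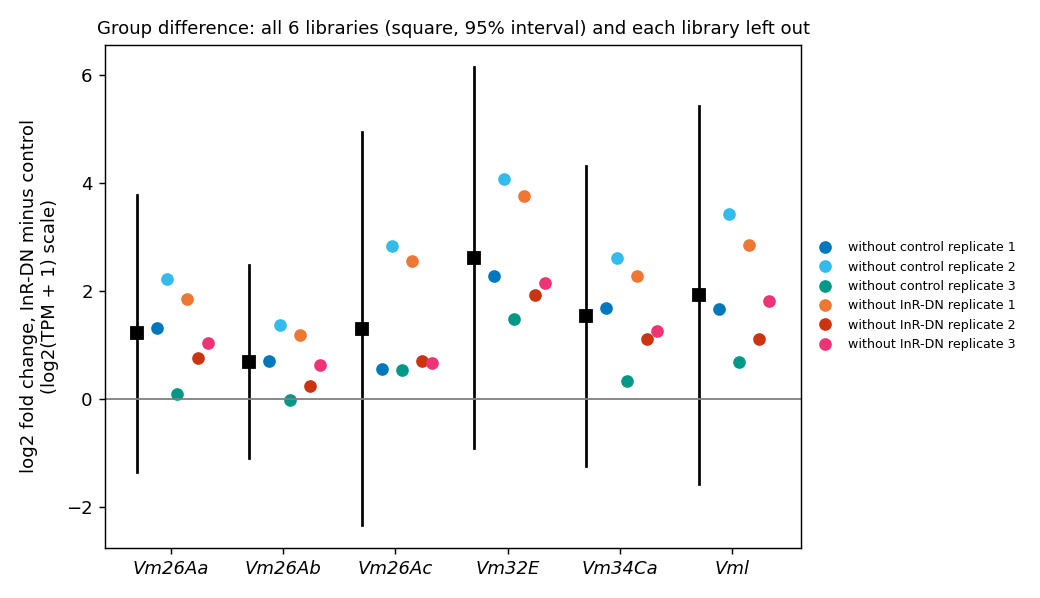
Log2 fold change of each gene between InR-DN and control libraries on the log2(TPM + 1) scale. Squares with bars give the limma estimate and 95% interval from all 6 libraries, and coloured points the estimate with 1 library left out. Every interval includes 0, and leaving out control replicate 3 brings Vm26Aa and Vm26Ab to 0.099 and -0.013.

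The spread of the members between libraries of 1 group was among the largest in the table. Their residual SDs on the log2 scale were 1.71 for Vm26Aa, 1.19 for Vm26Ab, 2.42 for Vm26Ac, 2.35 for Vm32E, 1.85 for Vm34Ca and 2.33 for Vml, against a median of 0.145 over 10816 genes. By this measure Vm26Ac ranked number 12, Vm32E 17, Vml 18, Vm34Ca 43, Vm26Aa 52 and Vm26Ab 116. The list of the 50 largest held 4 members and 9 chorion and other eggshell genes. It also held genes on none of these lists, of which CG13114, Cpr65Ea and CG4009 ranked highest. TwdlD, TwdlM, TwdlF, Osi6 and Osi15 were others, named after their values were seen. A large spread was therefore not particular to the listed eggshell genes. Whether the unlisted genes act in the eggshell was not tested.

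**Figure D4:**
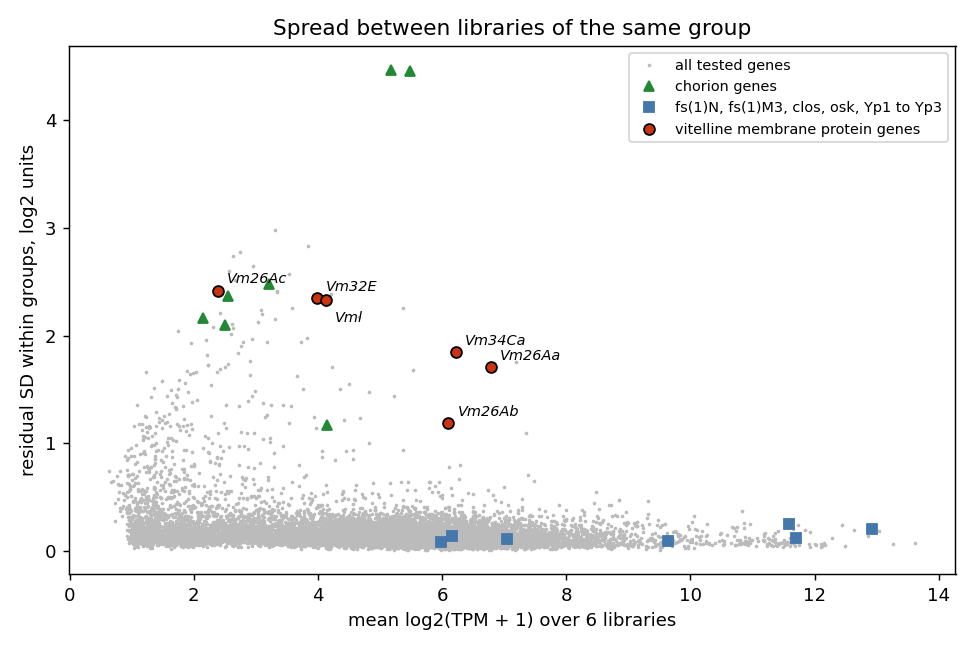
Residual SD within groups (log2 units) against mean log2(TPM + 1) for 10816 tested genes (grey). Circles are the vitelline membrane protein genes and triangles the chorion genes. Squares are fs(1)N, fs(1)M3, clos, osk, Yp1, Yp2 and Yp3, a selection that leaves out the other germ line markers. The vitelline membrane protein genes lie between 1.19 and 2.42, far above the median of 0.145.

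Other eggshell genes divided by whether they followed these values. The nearest profile to the members' mean, by the root mean square difference of centred log2(TPM + 1) values over 6 libraries, was that of psd (0.60). This gene (palisade) encodes a follicle cell protein required for vitelline membrane assembly, and lies 2746 bases beyond Vm26Aa. It lay at 6.15, 24.9 and 1.90 TPM in controls and 5.37, 27.0 and 15.7 TPM in the InR-DN libraries, in the same order of libraries as Vm26Aa. The next were Ir7c (0.90), of the ionotropic receptor family, CG14309 (0.96), the chorion gene Cp15 (1.02) and dec-1 (1.09). A gene that did not vary at all would lie at 1.75, and the median gene lay at 1.77. The first 50 genes held 4 genes of the eggshell lists. They also held all 6 members, which rank near by construction because the profile is their own mean.

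Ir7c stayed under 5 TPM, at 0.0914, 4.89 and 0.384 TPM in controls and 0.502, 4.11 and 4.71 TPM in the InR-DN libraries. CG14309 lay at 0.0323, 18.2 and 1.12 TPM in controls and 1.33, 14.9 and 33.9 TPM in the InR-DN libraries. Both were highest in the libraries in which the members were high.

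The gene dec-1 encodes eggshell proteins of the follicle cells that are needed for chorion assembly. It lay at 3.04, 102 and 13.2 TPM in controls and 6.61, 104 and 53.1 TPM in the InR-DN libraries. The same 3 libraries were high as for the members, but control replicate 1 rather than replicate 3 was lowest. Cp15 lay at 6.17, 38.1 and 9.63 TPM in controls and at 9.75, 44.3 and 20.3 TPM in the InR-DN libraries, again high in the same libraries.

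Apart from psd and CG13998, genes flanking the members varied little or were near 0. CG13998, 184 bases from Vm26Ab, reached at most 2.02 TPM and 15 reads, and was highest in InR-DN replicate 2, control replicate 2 and InR-DN replicate 3. Ca-beta, the host of Vm32E, lay at 8.49 to 10.7 TPM. CG7110, 93 bases from Vm34Ca, lay at 33.4 to 49.7 TPM. CG2865, 249 bases from Vml, lay at 42.4 to 64.0 TPM. The other flanking genes were CG6287 at 252 to 280 TPM and Boh2 at 28.0 to 44.9 TPM around Vm32E, Flad2 at 0 to 0.142 TPM beside Vm34Ca, and Grp170 at 143 to 169 TPM beside Vml.

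Follicle cells express the chorion genes after the vitelline membrane is made. Their summed level followed another order of libraries than the members, although Cp15 was high in the same libraries as these. Summed over the 9 chorion genes, the level was 9.71, 1021 and 961 TPM in control replicates 1 to 3 and 1085, 111 and 26.6 TPM in InR-DN replicates 1 to 3. Cp36 and Cp38 made up most of it in the 3 libraries where it was high. Control replicate 3 and InR-DN replicate 1, low for the members, were high here, and InR-DN replicates 2 and 3 were low. Cp36, a major chorion protein, lay at 0.193, 467 and 498 TPM in controls and 446, 27.7 and 1.17 TPM in the InR-DN libraries. Cp38, a second major one from the same cluster, lay at 0.0431, 290.0 and 364 TPM and at 456, 28.3 and 0.499 TPM.

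Vitelline membrane and chorion sums came in several combinations. Both were high in control replicate 2. Control replicate 3 and InR-DN replicate 1 had a high chorion sum and a lower vitelline membrane sum. In InR-DN replicates 2 and 3 this was reversed. Control replicate 1 had a low chorion sum beside a vitelline membrane sum of 198 TPM. The chorion sum followed Cp36 and Cp38, and the other chorion genes did not all share its order. In control replicate 3 and InR-DN replicate 1, Cp7Fa lay at 2.17 and 96.7 TPM and Cp19 at 1.59 and 56.0 TPM. In the same libraries Cp7Fc lay at 63.2 and 6.03 TPM. Of 7 tested chorion genes 3 had higher and 4 lower means in the InR-DN group, none passed, and the median log2 fold change was -0.82. Neither its size nor its direction held in every fit with 1 library left out, although it was -0.88 without InR-DN replicate 2. It fell to -3.58 when the first control library was dropped and to -2.81 for the first InR-DN library. It turned positive, at 0.48, 0.38 and 0.79, on dropping control replicate 2, control replicate 3 or the third InR-DN library. The lowest was Cp7Fc (-3.01, limma adjusted p = 1.00).

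Of the other eggshell genes, 16 were in the table and 14 were tested, 7 with higher and 7 with lower means, none passing, with a median of 0.04 that ran from -0.022 to 0.045 when 1 library was left out. The yellow-g2 gene, an eggshell member of the yellow family, had the lowest (-3.47), at 82.2 TPM or more in control replicates 2 and 3, 0.0376 TPM in control replicate 1 and at most 3.27 TPM in the InR-DN libraries. The groups did not overlap for wbl (windbeutel), which acts with pip in follicle cells, at 11.5, 6.53 and 6.11 TPM in controls and 4.62, 4.88 and 6.10 TPM in the InR-DN libraries (-0.50, limma adjusted p = 1.00). The groups are parted there by 6.11 against 6.10 TPM, and wbl is 1 of 14 tested genes of the list, beside 6.36% of all genes.

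Eggshell components that the germ line makes stayed within narrow ranges. These were fs(1)N at 57.2 to 66.5 TPM, fs(1)M3 at 61.6 to 77.7 TPM and clos at 113 to 141 TPM, all deposited by the oocyte into the vitelline membrane. Narrow ranges were not particular to these, since tsl lay at 11.7 to 17.1 TPM, Cad99C differed by 1.31-fold between its extreme libraries, and Pxt lay at 285 to 402 TPM. The genes tsl and Cad99C, named after their values were seen, act in follicle cells. The yolk protein genes Yp1, Yp2 and Yp3 summed to 13576, 16474 and 14665 TPM in controls and 12947, 15905 and 11997 TPM in the InR-DN libraries. The 6 ovary germ line markers summed to 1112 to 1305 TPM. Control replicate 3, lowest for every member, had a germ line sum of 1237 TPM, exceeded by InR-DN replicate 1 alone. Germ line markers do not measure follicle cells, and the relation of this sum to the members' values was not tested.

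The intestine markers summed to 16860, 18083 and 17478 TPM in controls and to 12179, 15887 and 17750 TPM in the InR-DN libraries. Among the low libraries for the members, control replicates 1 and 3 lay in the upper part of that range and InR-DN replicate 1 at its bottom. The photoreceptor markers summed to 3172 to 4338 TPM, lowest in InR-DN replicate 1 and highest in InR-DN replicate 2. The part of these tissues in the members' values was not tested.

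**Figure D5:**
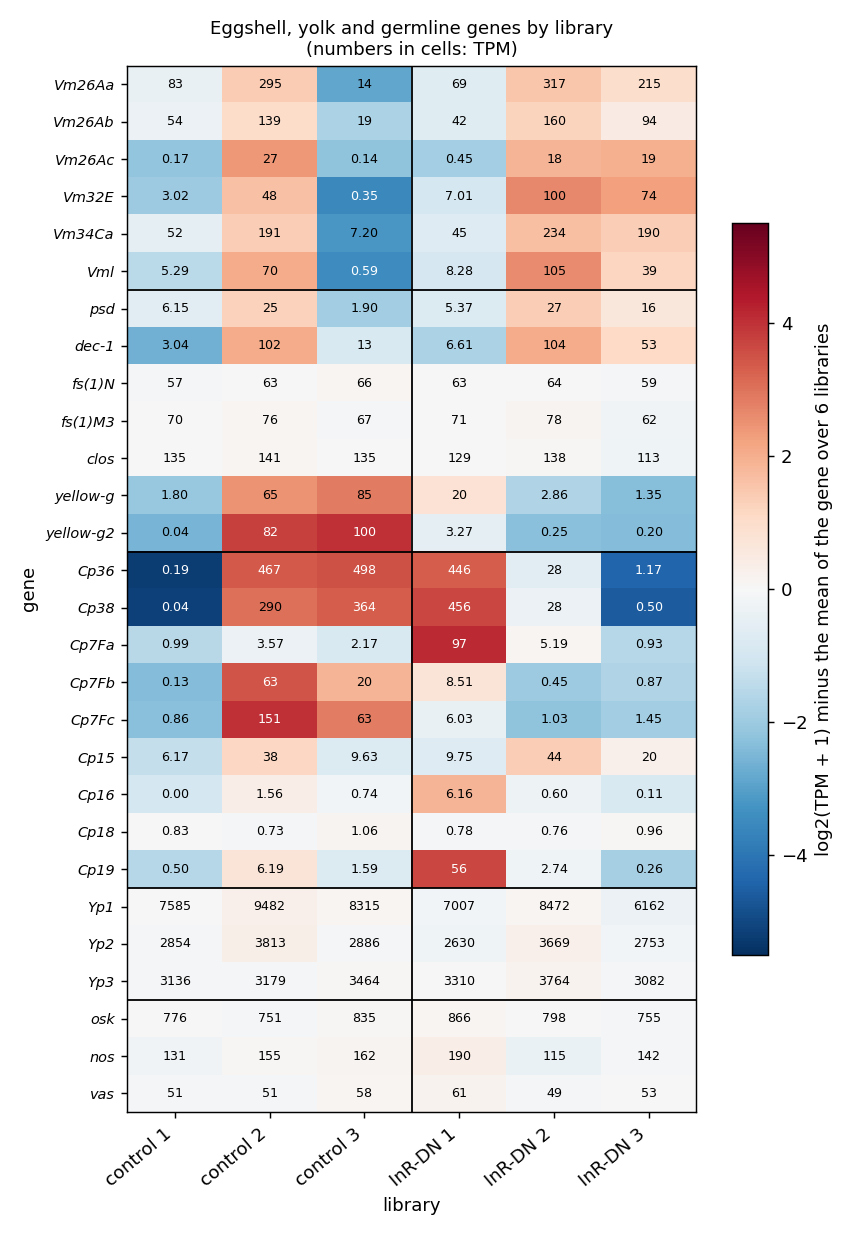
Heat map of log2(TPM + 1) minus the mean of each gene over the 6 libraries, with TPM printed in the cells. Row blocks are the vitelline membrane protein genes, other eggshell genes, chorion genes, yolk genes and germ line genes. Only part of the other eggshell genes and of the germ line markers (osk, nos and vas) is drawn. The first block is red in control 2 and InR-DN 2 and 3, the chorion genes Cp36 and Cp38 in control 2 and 3 and InR-DN 1, and the fs(1)N, fs(1)M3, clos, yolk and osk rows are nearly white.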

How the data were processed

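The authors deposited 1 table of TPM values, per the file headers. Each library sums to 1000000 TPM. TopHat and edgeR are named, without versions or roles, per the submitters' processing notes. The authors' build, gene models, counting program and strand setting remain not given in the sources used here. Columns were matched to samples by group initial and replicate number.

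Reads were recovered by multiplying TPM by the BDGP6.54 exon length, which gave whole numbers for 94.7% of genes with a length (relative tolerance 1e-06). For the rest the smallest length that gave nearly whole numbers was taken, so their reads may be understated. Depth recovered in this way was 33954856 to 45189247 reads per library and may be understated too.

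Groups were compared with limma 3.58.1 (R 4.3.3; eBayes with trend) on log2(TPM + 1). A gene needed 1 TPM or more in 3 or more libraries, which kept 10816. The procedure was also run on simulated data with noise drawn independently for each gene. Those runs do not bear on genes that share their high and low libraries, as the members do. The fit was repeated with a pseudocount of 0.1 or 5, without the filter or with one at 5 TPM, after rescaling by median of ratios, with robust eBayes, with a replicate block, leaving out each library, and by limma voom on reads (10 or more in 3 or more libraries). Sums and list medians were not tested.

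The members and gene lists were chosen with earlier results of these data known. Named genes were the members, up to 4 of the most abundant and 2 of the smallest p per list, the 5 profiles nearest to the members, and flanking genes. A few genes outside this rule were named after their values were seen. Fcp26Aa is an older name of psd and was counted once. LManII, Acp70A, Mst84Da and Mst98Ca were not analysed here, and no member sequence was used here.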

Additional observations from a re-analysis of the deposited data

How the results depend on the processing

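The direction of the members' group difference held in 83 of 84 alternative fits, none of which passed the adjusted p of 0.05. The exception was Vm26Ab, which was -0.013 without control replicate 3. Leaving out 1 library gave -0.013 to 1.37 for Vm26Ab. The number of genes past the adjusted p was 1 with a pseudocount of 0.1 and 1 with limma voom, and 0 to 3 when 1 library was left out (3 when it was control replicate 2, 1 when it was replicate 1 of either group or the last InR-DN library). None of these genes was a member. The cause of these changes was not tested. When 1 library was left out, the difference in summed level ran from 65.2 to 459 TPM, the chorion median from -3.58 to 0.79 and the other eggshell median from -0.022 to 0.045. Both medians took either sign. After rescaling by median of ratios the 3 values were 253 TPM, -0.82 and 0.04. Libraries of the same replicate number did not deviate together over the whole table (correlation over 10816 genes of -0.410, -0.178 and -0.126). The numbers therefore do not pair the libraries for genes in general. With a replicate block 0 genes passed, but the SE of every member was smaller, at 0.87 against 1.47 for Vml. The unadjusted limma p of Vm32E was 0.0517 with the block against 0.122 without it. That of Vml was 0.0799 against 0.232. Depth limits Vm26Ac, which rests on 2, 2 and 5 reads in its low libraries.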
